A study of Mus musculus with 6 samples.

Results

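The genes described here belong to the hypoxia-inducible factor (HIF) pathway, by which cells sense oxygen. They are 10 of the 11922 genes in the deposited count table, chosen by symbol, and all 10 were found there and passed the filter on low counts. Hif1a, Arnt, Vhl, Egln1, Egln2 and Egln3 are the regulators, and Pdk1, Bnip3, Vegfa and Ankrd37 are the targets. RNA was sequenced from bulk cultures of CD8+ T cells, purified on magnetic beads from the spleens of C57BL6/J mice and activated with anti-CD3/anti-CD28 Dynabeads. The 3 vehicle cultures received water and the 3 AOA cultures received 0.25 mM aminoxyacetic acid (AOA), which blocks enzymes that need pyridoxal phosphate, the active form of vitamin B6. Both groups carried no genetic change, were kept in recombinant human IL-2 at 100 units/ml and were lysed on day 7, and mice 1, 2 and 3 each gave a culture to both groups. The study used mice of both sexes older than 6 weeks, but the labels and methods give neither the age of these donors nor the oxygen level of these cultures.

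HIF1 is a pair of proteins, HIF-1α from Hif1a and its partner ARNT from Arnt, that binds DNA together and switches on genes for glycolysis, red cell and vessel growth, and mitochondrial turnover. The prolyl hydroxylases encoded by Egln1, Egln2 and Egln3 use oxygen, iron and 2-oxoglutarate to mark HIF-1α, and VHL, the recognition subunit of a ubiquitin ligase, then sends the marked protein for degradation. T cells raise HIF1 upon activation through the T cell receptor, and Egln3 is itself a well known HIF target. Because HIF-1α is controlled mainly through protein stability, RNA counts measure the transcripts of this pathway and not the activity of the factor.

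HIF1 recognises a short core in DNA, ACGTG or GCGTG, on either strand. The core ACGTG overlaps the E-box CACGTG, which MYC and other factors also bind. RefSeq promoter windows of GRCm38.p6, each with 250 bases before and 50 after a start site, were searched for both cores on both strands. All 10 genes had a window, 13 windows in all, and 10 of these 13 held a core. Among the windows of all genes tested, 62.2% held either core and 25.8% held ACGTG, so that a core in a window of this size is common. The Vhl window held none. The upstream stretches of Hif1a and Egln3, which fell with AOA, of Ankrd37, which rose, and of Bnip3, a target that was not called, are shown for comparison. Each runs from 250 to 21 bases before the RefSeq start site in the direction of the gene, with every core in capitals and the rest in lower case.
Hif1a, chr12:73907617-73907846, plus strand: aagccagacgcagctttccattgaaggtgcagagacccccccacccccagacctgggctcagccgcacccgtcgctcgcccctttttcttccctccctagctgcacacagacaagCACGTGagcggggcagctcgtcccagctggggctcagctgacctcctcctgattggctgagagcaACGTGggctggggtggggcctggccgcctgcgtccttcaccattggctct
Egln3, chr12:54203895-54204124, minus strand: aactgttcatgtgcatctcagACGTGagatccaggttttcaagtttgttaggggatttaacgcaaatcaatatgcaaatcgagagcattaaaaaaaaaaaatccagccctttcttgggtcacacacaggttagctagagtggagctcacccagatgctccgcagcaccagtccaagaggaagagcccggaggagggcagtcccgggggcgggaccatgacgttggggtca
Ankrd37, chr8:45999871-46000100, minus strand: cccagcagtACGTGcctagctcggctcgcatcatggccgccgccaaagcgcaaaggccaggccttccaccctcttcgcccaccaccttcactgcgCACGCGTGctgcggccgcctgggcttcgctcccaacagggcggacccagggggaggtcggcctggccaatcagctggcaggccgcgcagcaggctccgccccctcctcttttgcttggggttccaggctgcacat
Bnip3, chr7:138909527-138909756, minus strand: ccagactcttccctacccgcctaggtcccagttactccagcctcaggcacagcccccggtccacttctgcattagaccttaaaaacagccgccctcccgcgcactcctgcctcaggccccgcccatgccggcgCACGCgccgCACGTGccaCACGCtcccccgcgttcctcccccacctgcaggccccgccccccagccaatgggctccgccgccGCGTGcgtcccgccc
Within these stretches Egln3 held 1 core, Hif1a and Ankrd37 held 3 each and Bnip3 held 5, and the capitals CACGTG in Hif1a and Bnip3 are E-boxes read as a core on each strand. A match shows only that the letters are present. The GENCODE spans of Hif1a and Ankrd37 given with their values include a longer transcript that starts further upstream, so that their stretches lie inside those spans. No annotated exon lay in the 250 bases before the Hif1a start site, while an exon of Ankrd37 overlapped those before its own.

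Total counts were 12881962 to 18934869 in the vehicle libraries and 18696114 to 21997078 in the AOA libraries, and levels are given as CPM, the counts scaled to library sizes normalised by TMM. Vehicle replicate 2 and AOA replicate 1 stood apart from the other two libraries of their groups. Counts of vehicle replicate 2 differed from those of replicates 1 and 3 with a chi-square per gene of 55.1 and 59.7, against 10.02 between the latter. Those of AOA replicate 1 differed from those of replicates 2 and 3 with a chi-square per gene of 71.1 and 64.6, against 10.5 between the latter. Groups were compared with the quasi-likelihood test of edgeR, adjusted by Benjamini-Hochberg over the 11759 genes tested. A gene is called at an adjusted p under 0.05, and a negative log2 fold change means a lower level with AOA (SE, standard error). Of all genes tested, 53.0% were called, 26.2% higher and 26.8% lower with AOA, and the median log2 fold change was -0.02. Of the 10 HIF pathway genes, 1 was called higher and 3 lower, a share under this background. The 2 groups did not overlap for 4 of the 10, against 62.1% of all genes tested. Cd8a, the gene of the surface protein used to select the cells, and Cd3e, a subunit of the T cell receptor complex, had vehicle means of 785 and 417 CPM and AOA means of 1608 and 347 CPM. Of 5 CD8 T cell markers, Cd8a (log2 fold change 1.03) and Cd8b1 (0.64) were called higher, and Cd3d, Cd3e and Cd3g were not called. The call of Cd8b1 was lost without AOA replicate 3 (adjusted p = 0.0634 by edgeR). The exact permutation tests shuffled libraries without regard to mouse. With 3 cultures in each group such a test cannot give a p under 0.1.

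Among the regulators, both HIF1 subunits and 1 of the 3 prolyl hydroxylases were lower with AOA, while Vhl, Egln1 and Egln2 were not called. The fall was 2.66-fold for Hif1a, 1.44-fold for Arnt and 3.05-fold for Egln3. Thus 3 of 6 regulators were called lower, against 26.8% of all genes, and 0 were called higher. In bulk cultures fewer cells of a type and less RNA per cell cannot be told apart, and markers of other cells, given at the end, also differed between the groups.

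Hif1a (Entrez gene 15251, chromosome 12 from 73901375 to 73947530), the oxygen-regulated subunit of HIF1, was at 620, 430 and 648 CPM in vehicle replicates 1, 2 and 3. With AOA it was at 198, 237 and 204 CPM. The highest AOA library lay below the lowest vehicle library, which was that of mouse 2. The group means were 566 ± 119 and 213 ± 20.9 CPM (SD, n = 3 each), which gave a log2 fold change of -1.41 (SE 0.19, adjusted p = 0.000325 by edgeR). Within the 3 mice the log2 difference was -1.65, -0.86 and -1.67, so that the fall in mouse 2 was the smallest. GENCODE places a further protein-coding gene, Gm49321, on the same strand across exons of Hif1a, and the sources do not say how reads shared by such genes were counted.

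Arnt (Entrez gene 11863, chromosome 3 from 95434388 to 95497240), the constitutive partner of HIF-1α, was at 79.4, 65.7 and 80.9 CPM with vehicle and 49.5, 52.5 and 54.9 CPM with AOA. The groups did not overlap, and vehicle replicate 2 was again the lowest of its group. Its log2 fold change was -0.53 (SE 0.13, adjusted p = 0.00874 by edgeR). Without vehicle replicate 3 this call was lost, with a log2 fold change of -0.44 (adjusted p = 0.0549 by edgeR). On the scale of CPM per kilobase of gene length, Hif1a exceeded Arnt by a ratio of 6.56 ± 0.70 (SD, n = 3) with vehicle and 3.58 ± 0.35 (SD, n = 3) with AOA. The ratio was 6.87, 5.76 and 7.06 with vehicle against 3.52, 3.96 and 3.27 with AOA (exact permutation test, two-sided, p = 0.1, the smallest that 3 against 3 allows). The subunits therefore fell unequally in these libraries, Hif1a more than Arnt.

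Vhl (Entrez gene 22346, chromosome 6 from 113623959 to 113631633) was at 37.7, 38.04 and 40.5 CPM with vehicle and at 38.6, 29.9 and 30.6 CPM with AOA. AOA replicate 1 lay within the vehicle range, and the other two AOA libraries lay below it. The log2 fold change was -0.23 (95% interval -0.56 to 0.10, adjusted p = 0.211 by edgeR). Without AOA replicate 1 the fall was called, at -0.36 (adjusted p = 0.0336 by edgeR).

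**Figure D1:**
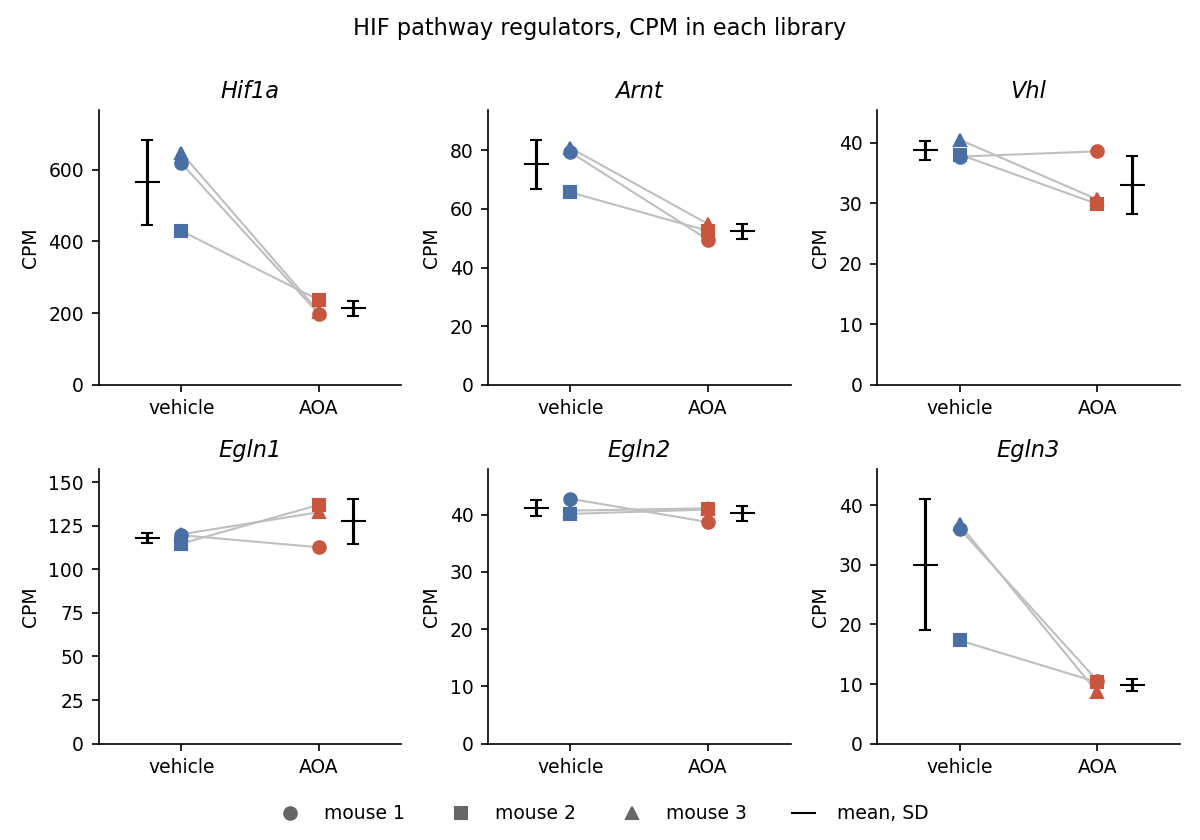
CPM (vertical axes, from 0) of the 6 regulators in each library by group, with grey lines joining the cultures of 1 mouse and black bars for the mean and SD. Hif1a, Arnt and Egln3 are lower in all 3 AOA libraries than in any vehicle library, while the groups overlap for Vhl, Egln1 and Egln2.

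Of the 3 prolyl hydroxylases, only Egln3 was called. Egln1 (PHD2; Entrez gene 112405, chromosome 8 from 124908587 to 124949324), generally held to be the main oxygen sensor of the family, was at 120, 115 and 120 CPM with vehicle and at 113, 137 and 133 CPM with AOA. The AOA libraries lay on both sides of the vehicle range, with a log2 fold change of 0.11 (95% interval -0.18 to 0.40, adjusted p = 0.495 by edgeR). Egln2 (PHD1; Entrez gene 112406, chromosome 7 from 27158658 to 27166802) was the steadiest of the 10 genes across libraries, at 42.8, 40.1 and 40.7 CPM with vehicle and 38.7, 40.9 and 41.1 CPM with AOA. Its interval, from -0.31 to 0.24 on the log2 scale, leaves out changes as large as those of Hif1a and Egln3.

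Egln3 (PHD3; Entrez gene 112407, chromosome 12 from 54178981 to 54203860), the hydroxylase best known for being switched on by HIF itself, was at 36.0, 17.3 and 36.7 CPM in the vehicle libraries. In the AOA libraries it was at 10.6, 10.3 and 8.62 CPM. All AOA libraries were lower than all vehicle libraries, and vehicle replicate 2 stood well under the other two. Means of 30.0 ± 11.0 and 9.83 ± 1.06 CPM (SD, n = 3 each) gave a log2 fold change of -1.61 (SE 0.28, adjusted p = 0.00126 by edgeR). Within the mice the log2 difference was -1.76, -0.74 and -2.08, and without vehicle replicate 2 the log2 fold change was -1.85 (adjusted p = 1.84e-05 by edgeR).

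Expressed per kilobase, Egln3 made up 19.9%, 11.1% and 20.5% of the summed level of Egln1, Egln2 and Egln3 with vehicle, and 7.28%, 6.20% and 5.34% with AOA. Its mean share thus went from 17.2% ± 5.23 to 6.27% ± 0.973 (SD, n = 3 each). The share of Egln1 was 50.1%, 56.1% and 50.7% with vehicle and 58.9%, 62.5% and 62.4% with AOA. For both genes the groups did not overlap (exact permutation test, two-sided, p = 0.1, the smallest possible). The share of Egln2 was 30.5% ± 2.06 with vehicle and 32.5% ± 1.30 with AOA (exact permutation test, two-sided, p = 0.3, n = 3 each). Unlike its makeup, the summed level of the family overlapped between groups, at 58.1 to 67.7 CPM per kilobase with vehicle and 54.3 to 62.1 with AOA (exact permutation test, two-sided, p = 0.3). Shares of this kind must sum to 100%, so that the fall of 1 gene raises the shares of the others.

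**Figure D2:**
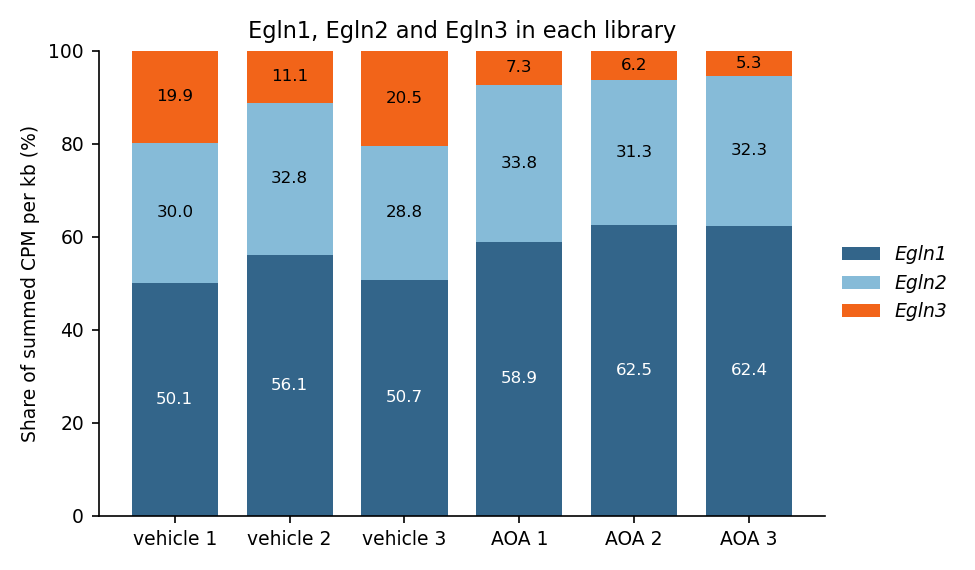
Share (%) of Egln1, Egln2 and Egln3 in their summed CPM per kilobase, 1 bar for each library. The Egln3 share is 11.1% to 20.5% in the vehicle libraries and 5.34% to 7.28% in the AOA libraries, and Egln1 takes the largest share in all 6.

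The 4 targets did not move together. Ankrd37 was called higher, a 2.58-fold rise, against 26.2% of all genes called higher. Pdk1, Bnip3 and Vegfa were not called, and 0 targets were called lower. The median log2 fold change was 0.09 over the targets and -0.38 over the regulators.

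Ankrd37 (Entrez gene 654824, chromosome 8 from 45996902 to 46005707) encodes a small ankyrin repeat protein and is a known target of HIF1. Its raw counts were low, at 25, 46 and 54 with vehicle and 188, 95 and 133 with AOA. These came to 1.98, 2.92 and 2.93 CPM with vehicle and 8.64, 5.02 and 6.71 CPM with AOA. Each AOA library exceeded every vehicle library, and mouse 1 had both the lowest vehicle and the highest AOA value. The log2 fold change was 1.37 (SE 0.29, adjusted p = 0.00381 by edgeR), opposite in sign to those of Hif1a and Egln3. Exons of 2 protein-coding genes on the opposite strand, Ufsp2, which encodes a protease, and Lrp2bp, overlap Ankrd37, and the sources do not say whether counting used the strand. Lrp2bp was not in the count table, so that its level is not given here. Ufsp2 was at 22.5 ± 3.13 CPM with vehicle and 21.6 ± 2.04 CPM with AOA (SD, n = 3 each), with a log2 fold change of -0.06 (adjusted p = 0.782 by edgeR).

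Pdk1 (Entrez gene 228026, chromosome 2 from 71873224 to 71903858), a kinase that restrains the entry of pyruvate into the citrate cycle, was at 276, 138 and 336 CPM with vehicle and 265, 199 and 238 CPM with AOA. All AOA values lay inside the wide vehicle range, whose lowest value was that of replicate 2. The log2 fold change was -0.10 (95% interval -0.74 to 0.54, adjusted p = 0.794 by edgeR), and the level was lower with AOA in mice 1 and 3 and higher in mouse 2.

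Bnip3 (Entrez gene 12176, chromosome 7 from 138890836 to 138909519), a receptor for the removal of mitochondria by autophagy, was at 21.4, 20.6 and 23.8 CPM with vehicle. With AOA it was at 38.2, 22.7 and 19.4 CPM, so that AOA replicate 1 alone stood above the vehicle range. The log2 fold change was 0.29 (95% interval -0.26 to 0.83, adjusted p = 0.345 by edgeR), and without that library it was -0.06 (adjusted p = 0.745 by edgeR). The noncoding gene Gm45507 overlaps Bnip3 on the opposite strand.

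Vegfa (Entrez gene 22339, chromosome 17 from 46016993 to 46032369), the vascular growth factor that is a textbook HIF target, was low in all libraries, at 16.5, 7.80 and 10.3 CPM with vehicle and 7.31, 7.98 and 7.06 CPM with AOA. AOA replicate 2 lay just inside the vehicle range and the other two AOA libraries just below it, and vehicle replicate 1 was the highest. The log2 fold change was -0.63 (95% interval -1.24 to -0.01, adjusted p = 0.0813 by edgeR). Without vehicle replicate 2, whose level was close to those of the AOA libraries, the fall was called at -0.80 (adjusted p = 0.0138 by edgeR).

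**Figure D3:**
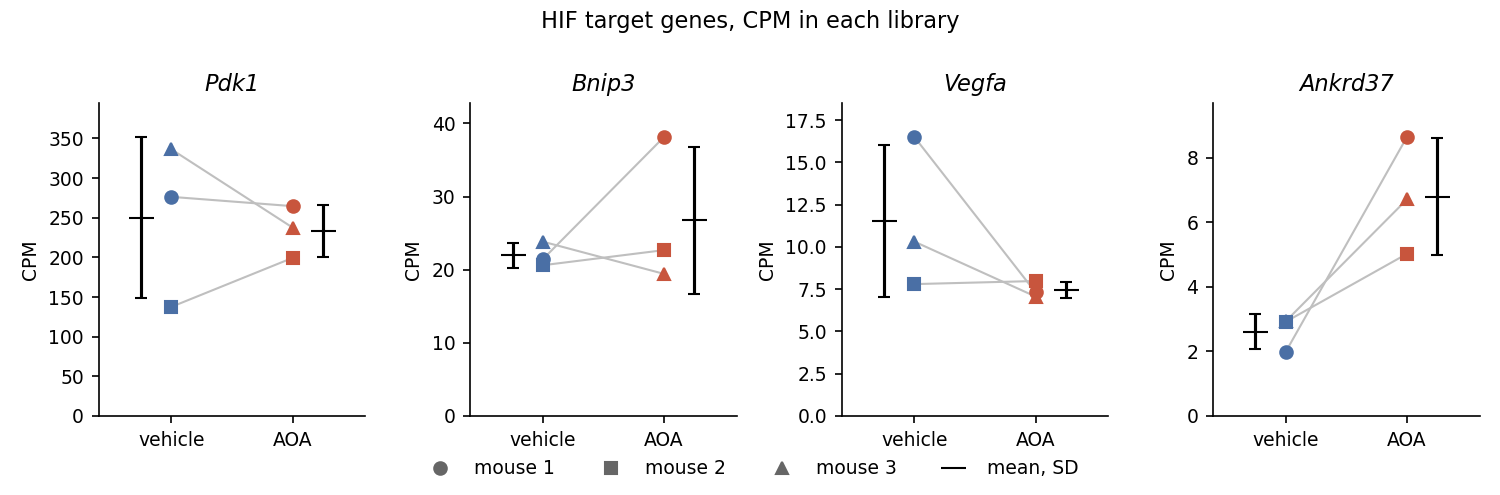
CPM (vertical axes, from 0) of the 4 targets in each library by group, with grey lines joining the cultures of 1 mouse and black bars for the mean and SD. Ankrd37 is higher in all 3 AOA libraries than in any vehicle library, and the groups overlap for Pdk1, Bnip3 and Vegfa.

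Vehicle replicate 2 was the lowest of its group for 8 of the 10 genes, all but Vhl and Ankrd37. Over all genes tested it was the lowest vehicle library for 41.3%. The calls of Hif1a, Arnt, Egln3 and Ankrd37 were kept without this library, with log2 fold changes of -1.54, -0.58, -1.85 and 1.48. They were also kept without AOA replicate 1, at -1.36, -0.49, -1.66 and 1.16.

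Levels per kilobase also set the order of the genes within each group. In the vehicle libraries Hif1a led at 114 CPM per kilobase, followed by Pdk1 at 48.2 and Egln1 at 33.5, and these last 2 overlapped over the 3 libraries. Egln2, Arnt, Vhl and Bnip3 followed at 19.6, 17.2, 14.2 and 12.5 CPM per kilobase without overlap between neighbours. Bnip3 and Egln3 (11.2) overlapped, as did Ankrd37 and Vegfa at the bottom (2.89 and 2.76). With AOA, Pdk1 and Hif1a overlapped at the top (45.1 and 42.9). Egln1 followed at 36.2, below Hif1a without overlap. It overlapped Pdk1, whose lowest library was at 38.5, against 38.9 for the highest of Egln1. Egln2 and Bnip3, Bnip3 and Vhl, and Vhl and Arnt each overlapped in turn, between 19.1 and 11.97 CPM per kilobase. Ankrd37 (7.51) then stood above Egln3 (3.68) and Egln3 above Vegfa (1.78), without overlap, so that Ankrd37 and Egln3 had changed places relative to vehicle.

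The other genes of the pathway were read from lists by role. Of the other HIF subunits and the asparagine hydroxylase FIH, 3 of 4 genes were in the table and 3 of 3 were called lower, against 26.8% of all genes tested. Epas1, which encodes HIF-2α, was at 29.6 CPM with vehicle and 1.92 CPM with AOA, a log2 fold change of -3.95 (SE 0.39, adjusted p = 7.60e-05 by edgeR). Hif1an, the gene of FIH, which blocks the binding of HIF-1α to its coactivators, went from 83.7 to 46.7 CPM (log2 fold change -0.84, adjusted p = 0.000608 by edgeR). Hif3a was near the floor of detection at 1.70 and 0.623 CPM (log2 fold change -1.44, adjusted p = 0.0144 by edgeR), and only 2 of the 3 genes were called without vehicle replicate 3 or without AOA replicate 3.

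All 4 partners of VHL in its ubiquitin ligase were called higher, against 26.2% of all genes tested, while Vhl itself was not called. The scaffold Cul2 rose from 41.8 to 81.6 CPM (log2 fold change 0.96), the ring subunit Rbx1 from 42.9 to 74.8 CPM (0.80), and the elongin subunits Eloc and Elob from 50.01 to 88.9 CPM (0.83) and from 79.7 to 124 CPM (0.64). The largest adjusted p among the 4 was 0.00903 by edgeR, and all 4 were called under every alternative tried. AOA replicate 1 was the highest library for each of the 4, and without it the log2 fold changes were 0.83 for Cul2, 0.57 for Rbx1, 0.57 for Eloc and 0.45 for Elob. Rbx1, Eloc and Elob also serve other ligases or transcription elongation. Of 8 coactivators and stability factors, 3 were called higher and 0 lower, against 26.2% and 26.8% of all genes tested, and the median log2 fold change was 0.06. The 3 called higher included the chaperones Hsp90aa1 (1.88) and Hsp90ab1 (0.81), which hold HIF-1α among many other clients. The other was Siah1a (0.81), a ubiquitin ligase that targets prolyl hydroxylases. In the main test the coactivator genes Ep300 and Crebbp had log2 fold changes of -0.45 and -0.38 and were not called (adjusted p = 0.0680 and 0.0579 by edgeR). In this list 1 gene was called lower without vehicle replicate 2, AOA replicate 1 or AOA replicate 2. The same count came with the mouse as a block and with at least 10 CPM required in 3 libraries.

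**Figure D4:**
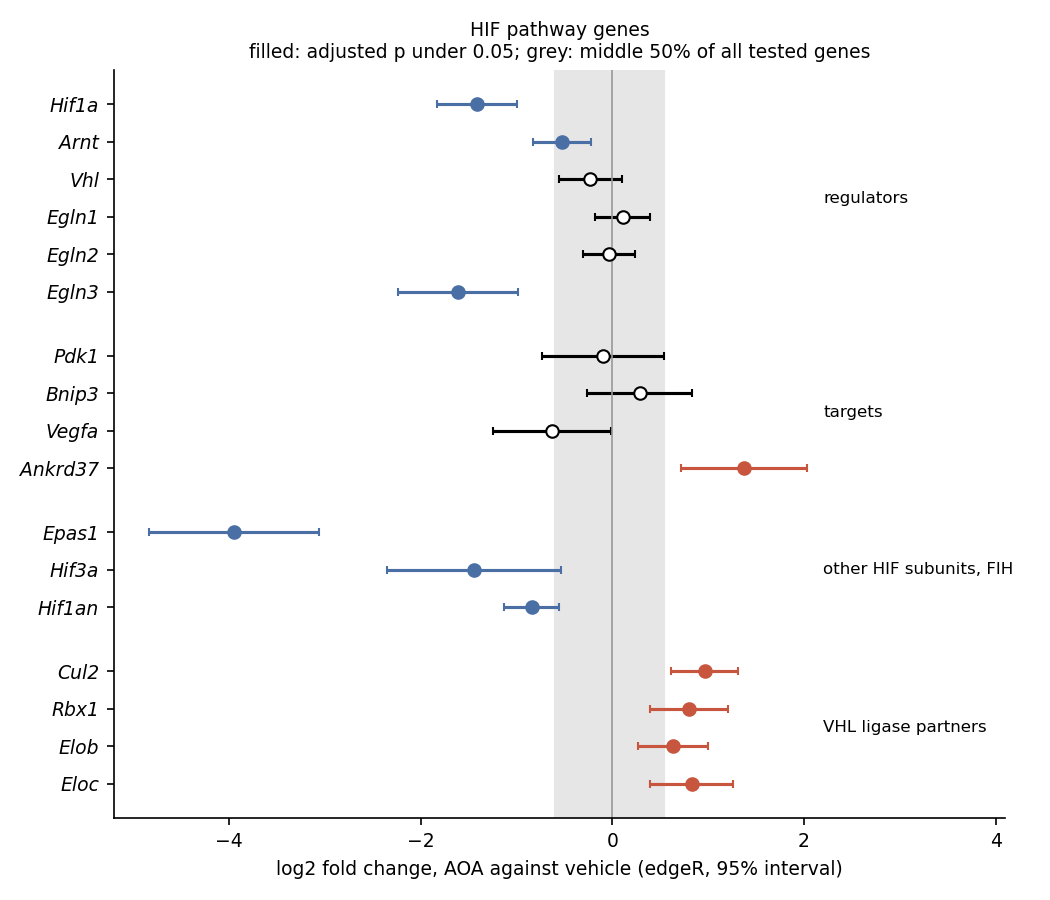
log2 fold change (AOA against vehicle, edgeR) with its 95% interval for the 10 genes and for the other HIF subunits, FIH and VHL ligase partners, where filled points are called and the grey band holds the middle 50% of all genes tested. Hif1a (-1.41), Egln3 (-1.61) and Epas1 (-3.95) lie far to the left of the band, Arnt (-0.53) lies just inside its left edge, and Ankrd37 (1.37) and the 4 ligase partners (0.64 to 0.96) lie to its right.

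Other HIF1 targets were read against the background of all genes tested, of which 26.2% were called higher and 26.8% lower. Of 16 glycolytic targets tested, 7 were called higher and 5 lower, and the median log2 fold change was 0.36. Tpi1 (1.63), Ldha (1.38), Pgam1 (1.29) and Hk2 (0.83), all enzymes of glycolysis or lactate formation, rose most. The glucose transporter Slc2a3 (-2.06), the regulatory enzyme Pfkfb4 (-1.45), Aldoa (-0.90) and Gpi1 (-0.71) fell most. The calls of Hk2, Gpi1 and Aldoa depended on single libraries. Hk2 was lost without vehicle replicate 1 or 3 or AOA replicate 2 or 3 (adjusted p = 0.0837 to 0.107 by edgeR). Gpi1 was lost without vehicle replicate 1 or 3 or AOA replicate 1 or 3 (0.0502 to 0.0811), and Aldoa without vehicle replicate 1 or 3 or AOA replicate 1 (0.0598 to 0.0616). The number of glycolytic targets called lower was 2 without vehicle replicate 1, without vehicle replicate 3 and without AOA replicate 1, and 3 without AOA replicate 3. It was 4 with the mouse as a block and 4 with limma voom.

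Of 27 targets outside glycolysis, 9 were called higher and 7 lower, near the background of 26.2% and 26.8%, and the median log2 fold change was -0.11. The transferrin receptor Tfrc (2.36), the secreted glycoprotein Stc2 (1.497), the cytokine Mif (1.34) and the mitochondrial protein Fam162a (1.02) rose most. The transcriptional repressors Bhlhe40 (-2.48), Mxi1 (-2.04) and Nfil3 (-1.83) and the lipid droplet protein Hilpda (-1.14) fell most among the genes that met the rule for naming. For 2 further genes of this list, Vldlr and Mgarp, counts were too low to test.

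A wider list came from the study, which took genes that were higher in CD4+ T cells lacking the prolyl hydroxylases and lower in those lacking HIF1, in data from other experiments. That list also holds Vhl, Egln1, Egln3, Bnip3, Vegfa and Ankrd37, which are described above. Leaving out these members of the pathway, 93 of 102 were in the table and 89 were tested. Of these 23 were called higher and 27 lower, 39 were not called, and the median log2 fold change was -0.16. Beside these counts, 26.2% of all genes tested were called higher and 26.8% lower. Tgm2 (2.48), Syce2 (2.17), Prelid2 (1.84) and Tpi1 (1.63) rose most and Mt1 (-3.24), Bhlhe40 (-2.48), Pygl (-2.43) and Tubb6 (-2.23) fell most among those that met the rule for naming. The size of 2 of these changes depended on single libraries, though both were called under all 13 alternatives. Tgm2 was at 3.84 without vehicle replicate 3, a larger rise, and Mt1 at -2.01 without vehicle replicate 2, a smaller fall. Pygl was at 70.1, 13.8 and 71.2 CPM in vehicle replicates 1, 2 and 3, and it fell least in mouse 2 (-0.49). The list shares 26 genes with the lists of glycolytic and other targets, which is 28.0% of its 93 genes and 57.8% of their 45.

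**Figure D5:**
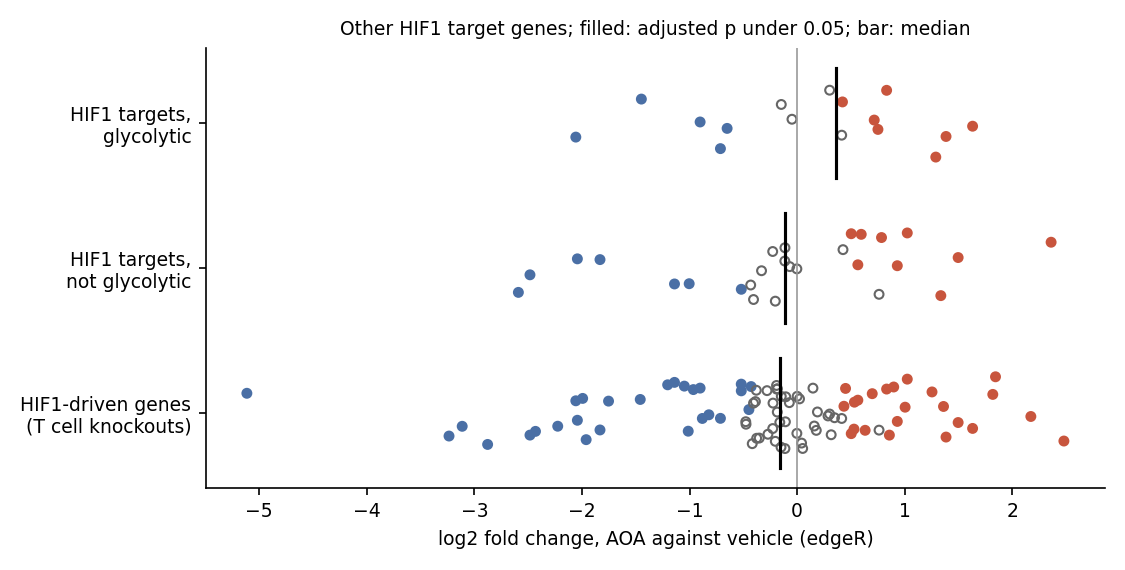
log2 fold change (AOA against vehicle, edgeR, horizontal axis) of each gene in 3 lists of HIF1 targets, where filled points are called, open points are not and black bars mark medians. Called genes lie on both sides of 0 in each list, with medians of 0.36, -0.11 and -0.16.

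Markers of other cells differed between the groups as well. The counts of markers called lower stand beside 26.8% of all genes tested, and those called higher beside 26.2%. Of 4 CD4 T cell markers, 3 were called lower, with a summed level of 158 to 210 CPM with vehicle and 33.0 to 54.3 CPM with AOA. Of 7 myeloid markers, 5 were in the table, 3 were tested and all 3 were called lower, with a sum of 59.1 to 77.7 CPM with vehicle and 4.28 to 8.67 CPM with AOA. Among these Itgam was at 45.4 CPM with vehicle and 1.21 CPM with AOA, and Lyz2 was near 0 in both groups, at 0.106 and 0.513 CPM. Of 5 stromal and endothelial markers 2 were tested and both were called lower (110 to 142 against 39.4 to 54.8 CPM). The 1 natural killer marker tested was also lower, with a sum over 2 markers of 20.1 to 114 against 3.53 to 11.6 CPM. Of 4 B cell markers tested, 1 was called higher (12.6 to 16.6 against 22.6 to 30.7 CPM), and the erythroid markers were not in the table. Several of these genes, such as Itgam and Pecam1, are also expressed by T cells. The part of such cells in the falls of Hif1a, Egln3 and Epas1 was not tested.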

How the data were processed

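Libraries were made by the authors with the TruSeq Stranded mRNA protocol and sequenced as paired-end reads. Per the labels and the methods of the study, reads were aligned with STAR at default settings to mm10 and uniquely mapped reads were counted, with featureCounts named in the submitters' processing notes. The deposited values are raw counts per gene, beside a gene length in bases from the authors. The annotation, strand setting, tool versions and gene filter behind the table were not given in the sources used here, and no per-sample column was left aside. 

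The tests ran edgeR 4.0.16 under R 4.3.3, with filterByExpr (minimum count 10), TMM, and the robust quasi-likelihood test without a block, with the threshold at 0.05. Log2 differences within a mouse use a prior count of 2. Alternatives used DESeq2 1.42.0, limma 3.58.1 (voom), other scalings and filters, a mouse block and each library left out. The labels pair the groups by mouse. Across genes, deviations from the group means correlated at r = 0.0868, 0.189 and 0.194 within mice 1, 2 and 3. Between different mice r ran from -0.177 to 0.0350, and genes are not independent replicates. Replicates differed by more than sampling noise (chi-square per gene of 10.0 to 71.1). The steps were tested on simulated data with few changed genes and no mouse effect or outlying library. These data differ from that setting, since 53.0% of genes were called.

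Members and lists were chosen with earlier results of these data known. Of the other lists, genes were named by a rule: up to 4 per direction with the largest change among called genes, averaging 10 CPM or more in whichever group was higher and moving one way in all 3 mice. Ep300, Crebbp, Cd3d, Cd3e, Cd3g, Ufsp2, Lrp2bp, Vldlr, Mgarp and the markers Lyz2, Itgam and Pecam1 were named in addition, after their values were seen. Loci are from GENCODE vM21 on GRCm38, the assembly of mm10.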

Additional observations from a re-analysis of the deposited data

How the results depend on the processing

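Hif1a and Egln3 were called lower under all 13 alternatives, with log2 fold changes from -1.54 to -1.27 and from -1.85 to -1.41, and Ankrd37 was called higher under the 12 that tested it (1.16 to 1.55). With at least 10 CPM required in 3 libraries, Ankrd37 and Vegfa were not tested, so that 0 targets were called higher. The replicate block by mouse changed no call among the 10 genes (Hif1a -1.39, Arnt -0.52, Egln3 -1.54, Ankrd37 1.34) and called 6292 genes in all.

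With each library left out in turn, the number of regulators called lower ran from 2 to 4 and that of targets called lower from 0 to 1. Arnt ran from -0.58 to -0.44 on the log2 scale and lost its call without vehicle replicate 3. Vhl ran from -0.36 to -0.16 and was called without AOA replicate 1, and Vegfa ran from -0.80 to -0.26 and was called without vehicle replicate 2. Among genes not called, the sign turned for Egln2 without vehicle replicate 1 (range -0.046 to 0.015) and for Bnip3 without AOA replicate 1 (-0.059 to 0.48). It turned for Pdk1 without vehicle replicate 1 (0.01), vehicle replicate 3 (0.21) or AOA replicate 2 (0.01), over a range of -0.36 to 0.21. The cause was not tested. Depth limits Ankrd37 most, with 25 counts in its shallowest library.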
